A study of Homo sapiens with 12 samples.

Results

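The 58 genes described here encode the machinery of mitosis: the kinetochore, the spindle and its motors, and the kinases, checkpoint and proteases that control them. They were chosen by name for these roles, and each was read from the probe set of its symbol with the highest mean over all arrays. All 58 were measurable, among 9947 genes tested. The cells were CCRF-CEM-C7H2, a glucocorticoid-sensitive line of human T-cell acute lymphoblastic leukemia, and every group is this 1 clonal line grown under standard culture conditions. The study asked which transcripts a glucocorticoid changes. Cells were treated with the synthetic glucocorticoid dexamethasone at 100 nM or, as the control, with 0.1% ethanol, in which the drug is dissolved, and were harvested after 6 h or 24 h. The 4 groups were therefore dexamethasone at 6 h, ethanol at 6 h, dexamethasone at 24 h and ethanol at 24 h, with 3 independent experiments each, numbered 0, 1 and 3 at 6 h and 1, 2 and 3 at 24 h. Total RNA was hybridized to Affymetrix HG-U133 Plus 2.0 arrays, 1 array per sample and 12 in all.

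Between 22503 and 22941 probe sets per array reached a log2 value of 4, and arrays of 1 group correlated at Pearson's r of at least 0.989 over the tested probe sets. Of 16 T-lineage markers on the array, 15 were measurable, from PTCRA between 4.43 and 4.73 to CD3D between 13.87 and 14.36 on the log2 scale. With dexamethasone at 24 h, 6 of the 15 rose and 5 fell (limma, adjusted p under 0.05), against 23.9% and 28.1% of all genes. CD8A differed by 2.54 and BCL11B by -0.90. None of 5 myeloid and 3 erythroid markers passed the filter, and of 6 stromal markers only COL1A1 did. Of 5 B-cell markers, CD79A and CD79B passed, while MS4A1, PAX5 and BLNK did not. The mean log2 level of the 2 B-cell markers was 8.48 to 8.62 on the ethanol arrays at 24 h and 9.41 to 9.51 with dexamethasone, and its part in the results was not tested. CD79A differed by 1.55 (adjusted p = 5.07e-05) and CD79B by 0.25 (adjusted p = 0.256 without and 0.0391 with the experiment as a block). By the codes in the array names there were 3 batches, 1 for the treated arrays of 6 h, 1 for their controls and 1 for everything taken at 24 h. Treatment and batch therefore cannot be told apart at 6 h, whereas the 24 h comparison lies within a single batch.

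As background, cyclin B and the kinase CDK1 drive a cell into mitosis, kinetochores bind chromosomes to spindle microtubules, and a checkpoint holds the cell until all are attached. The anaphase-promoting complex then marks securin and cyclin B for destruction, separase cuts cohesin and the cell divides. Most of these genes are transcribed late in the cell cycle, through promoters bound by the MuvB proteins with B-MYB and FOXM1, and they are repressed in resting cells by the same MuvB core in the DREAM complex. Glucocorticoids are known to arrest lymphoid leukemia cells in G1 and to kill them. In RNA from a whole culture, a change in the number of cells in mitosis and a change in RNA per cell cannot be told apart.

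In ethanol, 56 of the 58 genes had a higher mean at 24 h than at 6 h, with a median log2 difference of 0.43 and a range of -0.19 to 1.28. The median over all tested genes was 0.00. For 41 of the 58, every ethanol array of 24 h lay above every ethanol array of 6 h, against 12% of all tested genes, and no member showed the reverse. Only 2 members rose past the test (limma, Benjamini-Hochberg adjusted p under 0.05) against 0.201% of all genes: ECT2, which activates RhoA for cytokinesis, by 0.54 ± 0.08 (SE, n = 3 arrays per group; adjusted p = 0.0177) and NCAPG, a condensin subunit, by 0.72 ± 0.13 (adjusted p = 0.045). The values of ECT2 were 11.24, 11.29 and 11.13 in ethanol at 6 h and 11.77, 11.77 and 11.74 at 24 h, apart by more than their ranges. Leaving out 1 array ended the call of ECT2 in 5 of 12 cases (adjusted p up to 0.0983) and that of NCAPG in 9 of 12 (up to 0.177), and the count of members that rose then ran from 0 to 20, the 20 without ethanol experiment 1 of 6 h. At an unadjusted p under 0.05 there were 42 of the 58, against 1585 of all 9947 genes. The 2 times were run in different batches, so time and batch cannot be told apart here. Where each array was scaled to its poly-A spike controls, the members' median was 0.28, against -0.14 over all genes. The members' median exceeded that of all genes by 0.43. This gap is the same on both scales by construction, because the scaling shifts all genes of an array alike. No member passed the test on the spike scale, where 0.0201% of all genes rose and 0.151% fell.

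The widest spread lay among the 3 experiments at 6 h. Taking each gene's mean over 12 arrays as 0, the members' mean level in ethanol at 6 h was -0.51 in experiment 0, -0.01 in experiment 1 and -0.42 in experiment 3. With dexamethasone at 6 h it was -0.37, 0.10 and -0.29. At 24 h it was 0.12, 0.16 and 0.25 in ethanol and 0.31, 0.34 and 0.34 with dexamethasone. Experiment 1 thus stood above the other two at 6 h under both treatments, and in every experiment the dexamethasone array stood above its ethanol partner.

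**Figure D1:**
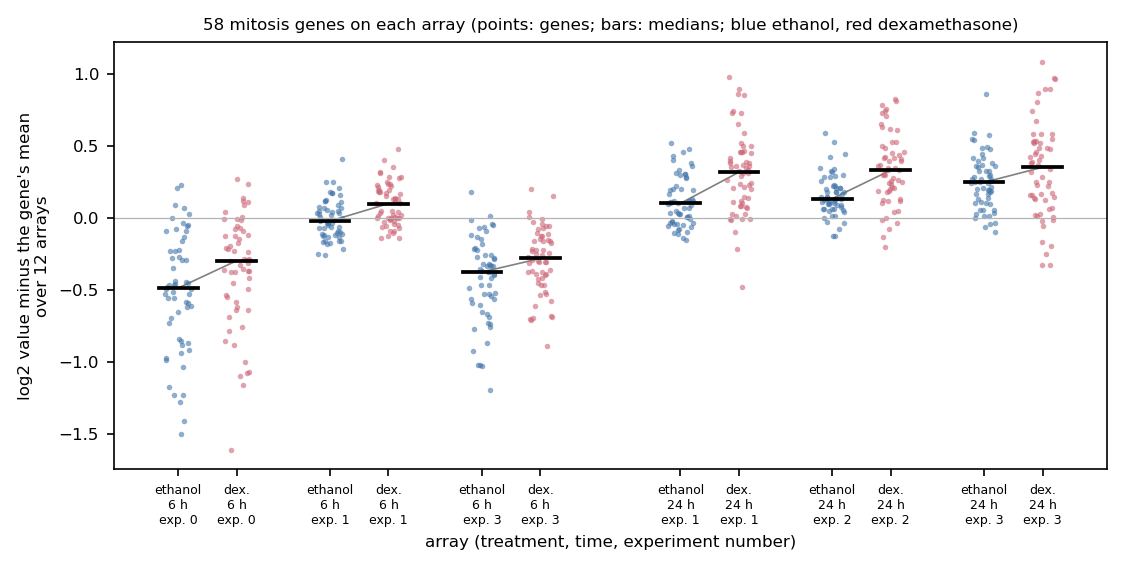
Each point is 1 of the 58 mitosis genes on 1 array, as its log2 value minus its mean over the 12 arrays (vertical axis); arrays are ordered by time and experiment, ethanol in blue and dexamethasone in red, and black bars are medians. The medians of experiments 0 and 3 at 6 h lie between -0.49 and -0.28, those of experiment 1 at -0.02 and 0.10, and those of 24 h between 0.10 and 0.35.

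PLK1, the kinase that drives centrosome maturation and mitotic entry, showed this most plainly. Its log2 values were 7.21, 9.12 and 8.06 in ethanol at 6 h and 7.11, 9.19 and 8.0 with dexamethasone at 6 h, in experiments 0, 1 and 3. In experiments 1, 2 and 3 of 24 h they were 9.24, 9.31 and 9.58 in ethanol and 9.21, 9.24 and 9.30 with dexamethasone. The gene was low in experiment 0 and high in experiment 1 whatever the treatment, and the 6 arrays of 24 h lay close together. Over the members, experiment 1 stood above the mean of experiments 0 and 3 by a median of 0.38 in ethanol, in 54 of 58 genes, and of 0.34 with dexamethasone, in 53 of 58. Over all tested genes the medians were 0.04 and 0.03. The offsets of the 58 genes in ethanol and in dexamethasone correlated at Pearson's r of 0.90 and Spearman's rho of 0.87, against 0.69 and 0.62 over all 9947 genes. These are correlations across genes on the same 6 arrays, and genes are not replicates. In 78 further mitosis genes the median offset was 0.18 under both treatments, and 48.7% of them had every ethanol array of 24 h above every one of 6 h. In 51 replication genes, whose products copy DNA before mitosis, the medians were -0.01 in ethanol and -0.04 with dexamethasone. The difference between the lists was not tested.

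This spread bears on every test below. The fit over all 12 arrays pools the spread of the 4 groups, and for the members its median standard error of the 24 h difference was 0.133. With the experiment as a block, which compares each dexamethasone array with its ethanol partner, the median standard error was 0.068, and with the 6 arrays of 24 h alone it was 0.082. Over all tested genes the 3 values were 0.110, 0.079 and 0.096. The range of a member over the 3 arrays of a group had a median of 0.46 in ethanol and 0.40 with dexamethasone at 6 h, but of 0.16 and 0.12 at 24 h. The counts over the members below are therefore given without and with the block and, at 24 h, within that single batch.

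**Figure D2:**
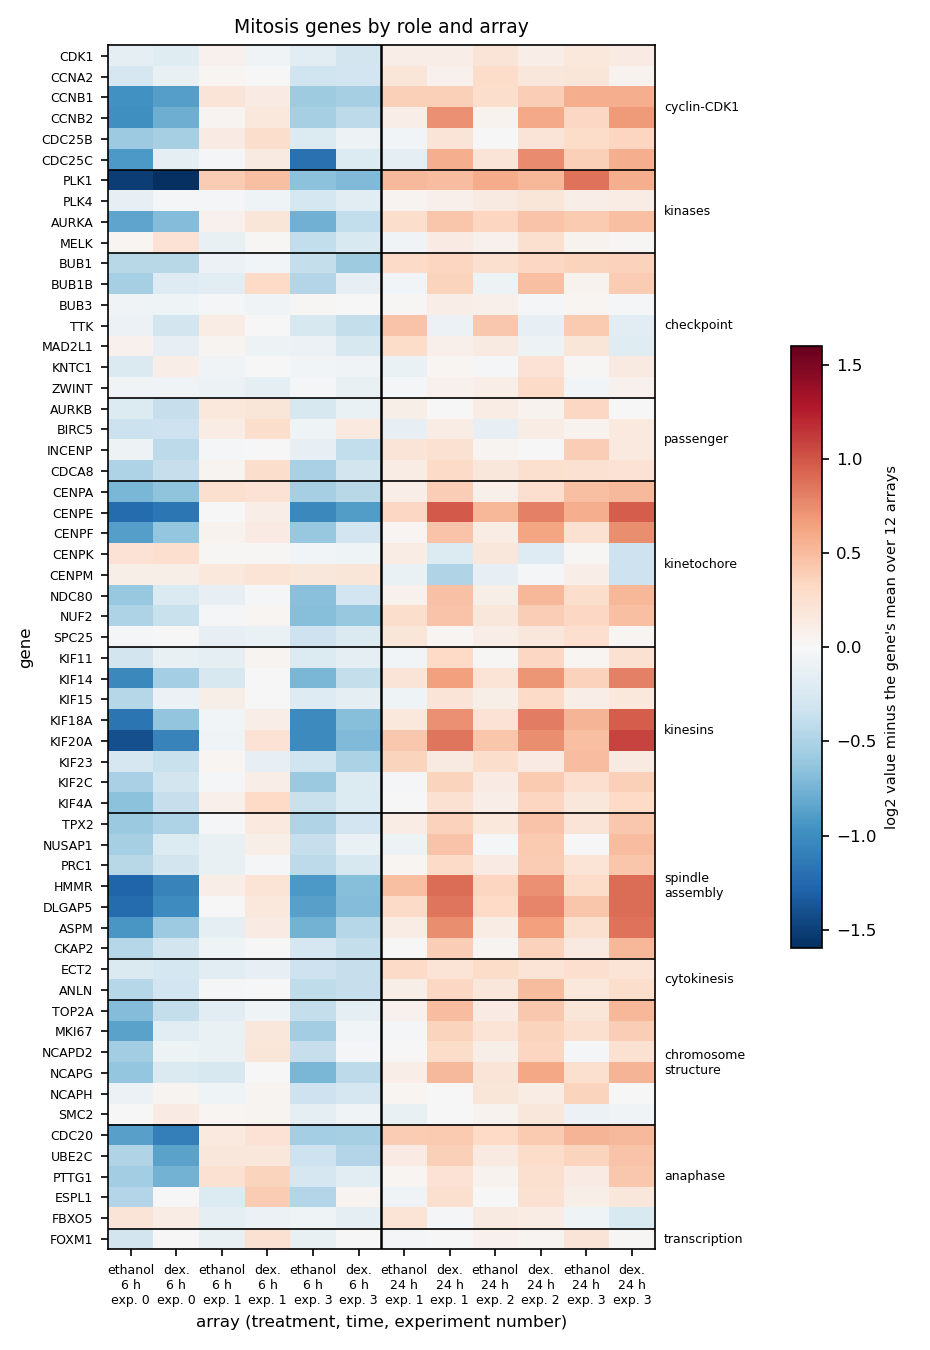
Rows are the 58 mitosis genes grouped by role, columns are the 12 arrays ordered by time and experiment, and the colour is the log2 value minus the gene's mean over 12 arrays (red above, blue below). Most rows are blue in experiments 0 and 3 at 6 h and red at 24 h; TTK, CENPK and MAD2L1 turn from red in ethanol towards blue with dexamethasone at 24 h.

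Because the members moved together between experiments, their promoters were searched for the sequence that the MuvB core reads. RefSeq (GRCh38.p14) promoters, from 250 bases before to 50 bases after a start site, were at hand for 49 of the 58 genes, 64 promoters in all. The cell cycle genes homology region (CHR element) was searched as TTTGAA and the CCAAT box, which NF-Y binds, as CCAAT, both on either strand. Only these exact sequences were counted, so a promoter without TTTGAA may still hold another form of the element. In 2 member promoters, those of CDCA8 and MKI67, a TTTGAA match shared its last base with a CCAAT match on the other strand, and both were counted. TTTGAA was found in 40 of 64 member promoters (62.5%), against 15.2% of all 35116 promoters of the same length, 36.5% of 85 promoters of other mitosis genes and 3.45% of 58 promoters of replication genes. The CCAAT box was found in 68.8% of member promoters, 34.6% of all promoters and 55.2% of those of replication genes. Both motifs together were in 48.4% of member promoters and 5.9% of all promoters. The replication genes thus shared the CCAAT box but rarely TTTGAA. Of the 52 TTTGAA matches in members, 38 began within 60 bases of the start site, 37 lay on the gene's strand, and the median position was 28 bases before the start. Promoters for AURKA, BIRC5, BUB3, CENPM, FOXM1, KNTC1, TPX2, TTK and UBE2C were not analysed here.

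**Figure D3:**
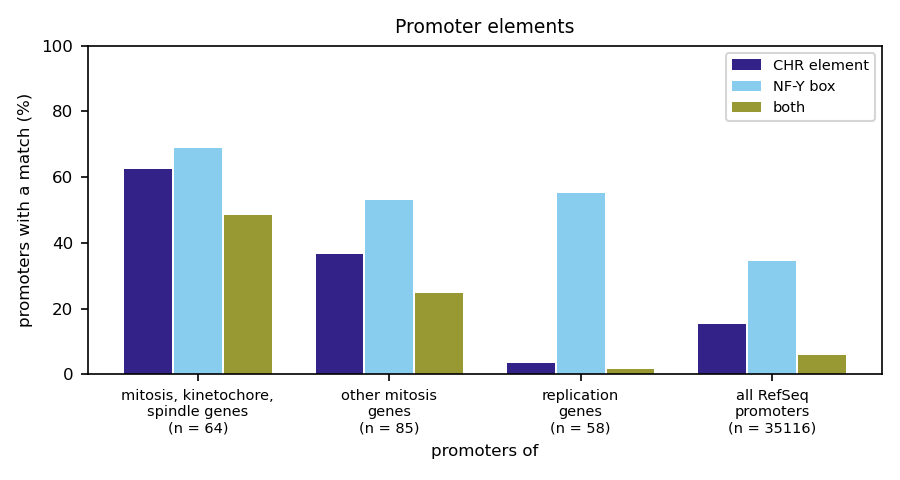
Bars give the percentage of promoters of 300 bases with a match to the CHR element, the NF-Y box or both, for the mitosis genes described here, other mitosis genes, replication genes and all RefSeq promoters. The CHR element, searched as TTTGAA only, was found in 62.5% of the mitosis gene promoters, 3.45% of the replication gene promoters and 15.2% of all promoters.

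Of the 10 members with a promoter that changed at 24 h in the fit without a block, 8 held the motif, as did 36 of all 49 members with a promoter (73.5%). Their stretches around it, 30 bases with TTTGAA in capitals and on the strand that reads so, are shown because these are the called members in which the motif was found.
ASPM, chr1:197146765-197146794, plus strand: ggcggcgcttcaTTTGAAtgattgcatccg
BUB1B, chr15:40161034-40161063, plus strand: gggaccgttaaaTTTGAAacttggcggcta
KIF11, chr10:92593090-92593119, minus strand: tcggcgcctcaaTTTGAAaaagagacagag
MAD2L1, chr4:120066807-120066836, minus strand: tgcgtcgttactTTTGAAacgcttggcggg
NCAPG, chr4:17810932-17810961, plus strand: tcgcgggaattaTTTGAAcgttcgagcggt
NDC80, chr18:2571542-2571571, minus strand: aagccgttcgaaTTTGAAattctccgccgg
NUSAP1, chr15:41332882-41332911, plus strand: tggcgccagggaTTTGAAccgcgctgacga
TOP2A, chr17:40418030-40418059, plus strand: ggccggggtttgTTTGAAtaaaccaatcag

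The other two, CKAP2, which rose, and CENPK, which fell, had no TTTGAA in this window. The promoter of CCNB2 holds both motifs, 4 CCAAT boxes and then TTTGAA 29 bases before the start. That of CENPK is given as the contrast, with 3 CCAAT boxes and no TTTGAA. The 250 bases before the start site are printed, 5′ to 3′ along the gene, with matches on either strand in capitals.
CCNB2, chr15:59104896-59105145, plus strand: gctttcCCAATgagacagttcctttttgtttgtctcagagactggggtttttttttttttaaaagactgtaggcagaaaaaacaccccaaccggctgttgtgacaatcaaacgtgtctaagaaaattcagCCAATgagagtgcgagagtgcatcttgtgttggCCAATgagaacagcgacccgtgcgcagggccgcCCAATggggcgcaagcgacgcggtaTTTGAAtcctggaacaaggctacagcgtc
CENPK, chr5:65563169-65563418, minus strand: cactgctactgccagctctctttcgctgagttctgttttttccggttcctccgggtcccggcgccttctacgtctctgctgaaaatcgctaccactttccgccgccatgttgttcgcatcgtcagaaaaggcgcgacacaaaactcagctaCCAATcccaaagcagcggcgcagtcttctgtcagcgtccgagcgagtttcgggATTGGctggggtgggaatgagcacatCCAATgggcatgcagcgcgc

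Responses overlapped widely between members with and without the motif. The 36 members with TTTGAA had a median difference of 0.22 at 24 h and the 13 without it of 0.12, with ranges of -0.27 to 0.59 and -0.35 to 0.44. At 6 h the medians were 0.15 and 0.04. In ethanol the medians of 24 h minus 6 h were 0.52 and 0.36, while the offset of experiment 1 with dexamethasone was 0.32 with the motif and 0.44 without. These are descriptions, and the matches say nothing of which factor was bound.

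After 24 h of dexamethasone the mitosis genes had not fallen as a group on the deposited scale. Their median log2 difference was 0.18, against -0.02 over all tested genes. The range was -0.57 to 0.59: ASPM moved furthest up, by a factor of 1.51, and TTK furthest down, by a factor of 1.48. In the fit without a block, 8 of 58 rose against 23.9% of all genes, and 3 fell against 28.1%. Blocking on the experiment gave 27 rises and 4 falls, against 28.8% and 32.4%. Within the 24 h batch alone, 21 rose and 4 fell, against 24.6% and 28.1%. All 8 and all 21 were among the 27 that rose with the block. The other 6 of the 27, ANLN, BIRC5, KIF2C, KIF4A, NUF2 and PTTG1, were not called within the batch, with adjusted p of 0.0546 to 0.0778. Without a block the share of members that rose was below that of all genes, and with it above. For 31 members all dexamethasone arrays of 24 h lay above all ethanol arrays of 24 h, against 30.5% of all genes, and for 7 they lay below, against 35.3%. By experiment, 45, 44 and 38 of the 58 were higher with dexamethasone at 24 h, with medians of 0.25, 0.20 and 0.10, while 48.8%, 47.8% and 45.2% of all genes were higher. Leaving out 1 array moved the 8 to between 2, without dexamethasone experiment 3 of 24 h, and 14, without ethanol experiment 1 of 6 h. Without both arrays of experiment 1 at 6 h, which was chosen after seeing the data, 23 rose and 4 fell. The shares of all genes in these fits with arrays left out are not given.

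These directions are relative to the bulk of the RNA. The poly-A spike controls, which are normally added to each RNA in a fixed amount, were higher on the dexamethasone arrays by 0.468 at 6 h and 0.338 at 24 h over 24 probe sets. The hybridization controls were higher there too, by 0.338 at 6 h and 0.377 at 24 h over 18 probe sets. How far the poly-A shift reflects the amount of RNA was not tested. On a scale set by the poly-A controls the median of all genes moved to -0.47 at 6 h and -0.36 at 24 h, and that of the members to -0.36 and -0.16. No member then rose, while 25 fell at 6 h against 68.0% of all genes and 14 at 24 h against 47.0%. The members' median exceeded that of all genes by 0.11 at 6 h and by 0.20 at 24 h. These gaps are the same on both scales by construction, because the scaling shifts all genes of an array alike. Values below are on the deposited scale, and every rise of a member named below was no longer called on the spike scale. In the other lists below, some rises at 24 h stayed called on the spike scale, where 9.65% of all genes rose. They were 2 of 78 further mitosis genes and 1 of 13 anaphase-promoting complex subunits. So did 1 of 21 regulators of mitotic gene transcription and 1 of 9 CDK inhibitors and G1 kinases.

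At 6 h the members' median difference was 0.11, against 0.00 over all genes. Only ESPL1 rose without a block (2.72% of all genes rose) and none fell (3.77%). With the block, 10 rose and none fell, against 6.08% and 7.53%: ASPM, NUSAP1, KIF14, KIF18A, KIF20A, BUB1B, MKI67, NCAPD2, NCAPG and ESPL1. By experiment, 43, 46 and 43 of 58 were higher, with medians of 0.14, 0.10 and 0.11. With the 6 h arrays alone no member passed the test, while 1.22% of all genes rose and 1.02% fell. An unadjusted p under 0.05 was reached by 26 members with the block and 8 without. Of all 9947 genes, 3102 reached it with the block and 2095 without. Without dexamethasone experiment 1 the median was -0.01, and without ethanol experiment 1 it was 0.27. Treatment and batch coincide at this time.

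**Figure D4:**
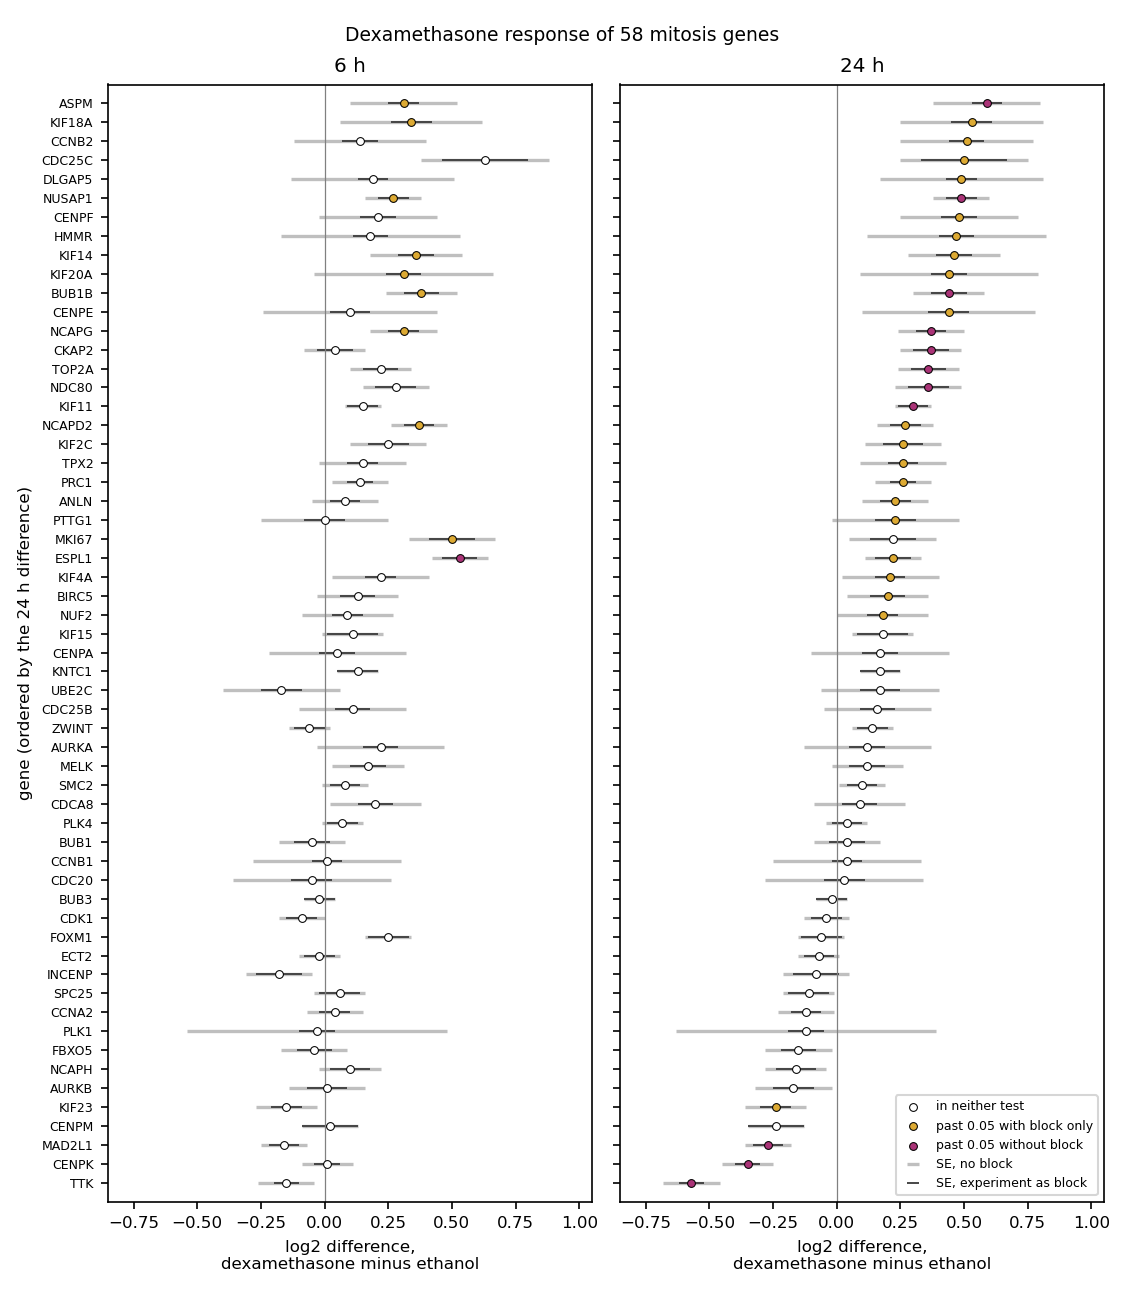
Points are log2 differences, dexamethasone minus ethanol, of the 58 mitosis genes at 6 h (left) and 24 h (right), ordered by the 24 h difference; pale bars are limma's standard errors without a block and dark bars those with the experiment as a block (n = 3 arrays per group). At 24 h 8 genes are past the test without a block on the right and 3 on the left, and the dark bars are mostly much shorter than the pale ones.

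Proteins that build the spindle and bind its microtubules were the role with the highest median at 24 h, 0.47 over 7 genes. Without a block 3 of 7 rose, against 23.9% of all genes, and all 7 rose with it and within the 24 h batch. ASPM, which focuses microtubules at the spindle poles, had log2 values of 12.23, 12.23 and 12.36 in ethanol and 12.85, 12.76 and 12.98 with dexamethasone at 24 h, in experiments 1, 2 and 3. All 3 treated arrays lay above all controls of 24 h. It rose by 0.59 ± 0.21 (adjusted p = 0.0387), a factor of 1.51, and by 0.31 ± 0.21 at 6 h (adjusted p = 0.451 without and 0.0181 with the block), where the values were 11.18, 11.95 and 11.35 in ethanol and 11.53, 12.24 and 11.65 with dexamethasone in experiments 0, 1 and 3. Its other 2 probe sets differed by 0.56 and 0.66 at 24 h. Leaving out 1 array ended the 24 h call in 6 of 12 cases, with adjusted p up to 0.111.

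NUSAP1, which bundles microtubules around chromosomes, was the steadiest of them. Its values at 24 h were 12.89, 12.94 and 12.98 in ethanol and 13.44, 13.39 and 13.47 with dexamethasone, a narrow and separate pair of groups. At 6 h they were 12.45, 12.86 and 12.60 in ethanol and 12.76, 13.07 and 12.87 with dexamethasone, and these groups overlapped. It rose by 0.49 ± 0.11 at 24 h (adjusted p = 0.00342) and kept the call whichever array was left out. CKAP2, a spindle-pole microtubule stabilizer, went from 11.07, 11.11 and 11.20 to 11.46, 11.43 and 11.59 at 24 h, again without overlap. The rise was 0.37 ± 0.12 (adjusted p = 0.0271), and it was lost in 4 of 12 cases when 1 array was left out, with adjusted p up to 0.0933. At 6 h CKAP2 had 10.60, 10.99 and 10.79 in ethanol and 10.76, 11.07 and 10.69 with dexamethasone, a difference of 0.04 ± 0.12.

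The remaining 4 rose only with the block or within the 24 h batch. DLGAP5, which stabilizes kinetochore fibres, had 11.80, 11.81 and 11.94 in ethanol and 12.35, 12.28 and 12.39 with dexamethasone at 24 h, a difference of 0.49 ± 0.06 (adjusted p = 0.000387 with the block and 0.229 without). Its ethanol values at 6 h were 10.26, 11.50 and 10.63, a range of 1.24 that enters the error of the fit without a block. HMMR, a spindle-pole adaptor for TPX2, differed by 0.47 ± 0.07 (adjusted p = 0.00122). TPX2, the activator of Aurora A on the spindle, differed by 0.26 ± 0.06 (adjusted p = 0.00731), and PRC1, which crosslinks the central spindle, by 0.26 ± 0.05 (adjusted p = 0.00619). Without the block their adjusted p values were 0.304, 0.247 and 0.0651.

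Among 8 kinesin motors, 1 rose at 24 h without a block, against 23.9% of all genes. With the block 6 rose, against 28.8%, and 1 fell, and within the batch 4 rose and 1 fell. The median was 0.28. KIF11, the Eg5 motor that pushes the spindle poles apart, had 11.74, 11.79 and 11.81 in ethanol and 12.10, 12.11 and 12.03 with dexamethasone at 24 h. The groups stood apart by more than their ranges, and the difference of 0.30 ± 0.07 (adjusted p = 0.00662) was kept whichever array was left out, though on the spike scale it was -0.04. At 6 h the values of KIF11 were 11.49, 11.62 and 11.56 and 11.66, 11.83 and 11.62, a difference of 0.15 ± 0.07 that did not pass (adjusted p = 0.305).

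Motors of chromosome congression and midzone assembly followed with the block. KIF18A, which damps chromosome movements at the plate, differed by 0.53 ± 0.08 at 24 h (adjusted p = 0.00187) and by 0.34 ± 0.08 at 6 h (adjusted p = 0.046). KIF14, a motor of cytokinesis, differed by 0.46 ± 0.07 and 0.36 ± 0.07 (adjusted p = 0.0011 and 0.0184). KIF20A, which carries the passenger complex to the midzone, differed by 0.44 ± 0.07 and 0.31 ± 0.07 (adjusted p = 0.00192 and 0.0347). These 3 rose at both times with the block and at neither without it. KIF2C, a depolymerase that corrects faulty attachments, and KIF4A, a chromokinesin, differed by 0.26 ± 0.08 and 0.21 ± 0.06 at 24 h with the block (adjusted p = 0.0263 and 0.0232). KIF15, which backs up KIF11, did not pass at 0.18 ± 0.12 (standard error without the block). KIF23, the motor of centralspindlin, went the other way: its values of 9.91, 9.83 and 10.04 in ethanol and 9.69, 9.68 and 9.69 with dexamethasone did not overlap, and it fell by 0.24 with the block (SE 0.06, adjusted p = 0.017; 0.118 without).

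The 8 centromere and kinetochore genes split. NDC80, which grips the microtubule at the outer kinetochore, had 11.51, 11.53 and 11.72 in ethanol and 11.91, 11.97 and 11.96 with dexamethasone at 24 h and rose by 0.36 ± 0.13 (adjusted p = 0.0487). The groups did not overlap, but the call was the weakest of the 8 rises and ended in 8 of 12 cases when 1 array was left out, with adjusted p up to 0.134. At 6 h its values were 10.83, 11.30 and 10.77 in ethanol and 11.21, 11.41 and 11.13 with dexamethasone. NUF2, its partner in the NDC80 complex, differed by 0.18 ± 0.06 (adjusted p = 0.0287 with the block), and SPC25, of the same complex, by -0.11 ± 0.10 without passing either test.

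CENPK, a subunit of the inner kinetochore network, fell. Its values were 10.54, 10.60 and 10.43 in ethanol and 10.21, 10.22 and 10.09 with dexamethasone at 24 h, without overlap, a difference of -0.35 ± 0.10 (adjusted p = 0.0167). The call ended in 2 of 12 cases when 1 array was left out, with adjusted p up to 0.062. At 6 h, with 10.65, 10.44 and 10.38 in ethanol and 10.69, 10.44 and 10.35 with dexamethasone, the groups lay on top of each other. CENPM, of the same network, differed by -0.24 ± 0.11 at 24 h and did not pass with or without the block. CENPE, the kinetochore's plus-end motor, and CENPF, a late-cycle corona protein, rose with the block, by 0.44 ± 0.08 and 0.48 ± 0.07 (adjusted p = 0.00319 and 0.000909). Other probe sets of CENPF differed by 0.29 and -0.17 at 24 h, and these did not pass without a block. CENPA, the centromeric histone, differed by 0.17 ± 0.27 and passed neither.

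Spindle checkpoint genes held both the largest fall and a rise. TTK, the MPS1 kinase that starts checkpoint signalling, had 12.23, 12.20 and 12.19 in ethanol and 11.68, 11.64 and 11.61 with dexamethasone at 24 h, groups that lay far apart for their narrow ranges. It fell by 0.57 (SE 0.11, adjusted p = 0.00184), a factor of 1.48, and kept the call whichever array was left out. At 6 h its values were 11.68, 11.90 and 11.52 in ethanol and 11.48, 11.78 and 11.39 with dexamethasone, a difference of -0.15 ± 0.11 (adjusted p = 0.508). MAD2L1, the inhibitor of CDC20, had 13.27, 13.12 and 13.16 in ethanol and 13.06, 12.89 and 12.78 with dexamethasone at 24 h and fell by 0.27 (SE 0.09, adjusted p = 0.0275). The highest treated array lay below the lowest control, the call ended in 4 of 12 cases when 1 array was left out (adjusted p up to 0.109), and its other 2 probe sets differed by -0.29 and -0.51. At 6 h the values of MAD2L1 were 13.04, 13.02 and 12.88 in ethanol and 12.85, 12.89 and 12.72 with dexamethasone.

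BUB1B, the BUBR1 subunit of the same inhibitory complex as MAD2L1, rose. Its values were 12.24, 12.21 and 12.34 in ethanol and 12.65, 12.77 and 12.69 with dexamethasone at 24 h, without overlap, a difference of 0.44 ± 0.14 (adjusted p = 0.0219; lost in 4 of 12 cases when 1 array was left out, with adjusted p up to 0.0668). At 6 h it had 11.76, 12.12 and 11.82 in ethanol and 12.08, 12.61 and 12.16 with dexamethasone, higher in each experiment, by 0.38 ± 0.14 (adjusted p = 0.142 without and 0.0184 with the block). The other 4 checkpoint genes passed neither test at 24 h: the kinase BUB1 at 0.04 ± 0.13, its kinetochore partner BUB3 at -0.02 ± 0.06, KNTC1 of the ROD complex at 0.17 ± 0.08 and ZWINT, which links that complex to the kinetochore, at 0.14 ± 0.08. Members of 1 complex thus differed in direction, BUB1B up and MAD2L1 down in the same cells.

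The cyclin B and CDK1 engine itself did not pass the test at either time without a block. CDK1 had 12.58, 12.68 and 12.64 in ethanol and 12.58, 12.57 and 12.61 with dexamethasone at 24 h, overlapping groups with a difference of -0.04 ± 0.09 (95% interval -0.24 to 0.15). At 6 h it had 12.31, 12.54 and 12.29 in ethanol and 12.27, 12.42 and 12.17 with dexamethasone. CCNB1, cyclin B1, had 12.34, 12.24 and 12.55 in ethanol and 12.34, 12.36 and 12.54 with dexamethasone at 24 h, a difference of 0.04 (95% interval -0.61 to 0.68 without and -0.11 to 0.19 with the block). Its 6 h values of 10.99, 12.17 and 11.40 in ethanol and 11.08, 12.09 and 11.43 with dexamethasone again followed the experiment and not the treatment. CCNB2, cyclin B2, did not follow CCNB1. It had 12.24, 12.19 and 12.46 in ethanol and 12.86, 12.74 and 12.80 with dexamethasone at 24 h, without overlap, and differed by 0.51 ± 0.07 (adjusted p = 0.00101 with the block, 0.00455 within the 24 h batch and 0.136 without a block). At 6 h it had 11.14, 12.18 and 11.60 in ethanol and 11.35, 12.29 and 11.71 with dexamethasone.

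CDC25C, the phosphatase that activates cyclin B with CDK1, differed by 0.50 ± 0.17 at 24 h (adjusted p = 0.041 with the block). At 6 h its difference was 0.63, the highest of the 58, with a standard error of 0.25 without and 0.17 with the block. It did not pass (adjusted p = 0.193 without and 0.0548 with the block). CDC25B, its partner at mitotic entry, differed by 0.16 ± 0.21 at 24 h and CCNA2, cyclin A2, by -0.12 ± 0.11; neither passed. Of the 6 genes, 2 rose with the block at 24 h and none fell, against 28.8% and 32.4% of all genes.

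None of the 4 mitotic kinases passed at either time, with or without the block. PLK1 differed by -0.12 at 24 h, with a 95% interval of -1.25 to 1.00 without and -0.30 to 0.05 with the block. AURKA, the Aurora kinase of centrosomes and spindle poles, had 11.82, 11.89 and 11.96 in ethanol at 24 h and 11.99 to 12.02 on the 3 dexamethasone arrays. At 6 h it had 10.71, 11.62 and 10.78 in ethanol and 10.86, 11.74 and 11.15 with dexamethasone. All treated arrays of 24 h lay above the controls, by a mean of 0.12 (95% interval -0.05 to 0.28 with the block). PLK4, the trigger of centriole duplication, differed by 0.04 ± 0.08 and MELK, a kinase of dividing cells, by 0.12 ± 0.14. In the chromosomal passenger complex, which corrects attachments and directs cytokinesis, only BIRC5 (survivin) passed, and only with the block, at 0.20 ± 0.07 (adjusted p = 0.0397). The Aurora B kinase AURKB differed by -0.17 ± 0.15, the scaffold INCENP by -0.08 ± 0.13 and the borealin subunit CDCA8 by 0.09 ± 0.18.

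Chromosome structure genes rose in part. TOP2A, the topoisomerase that untangles sister chromatids, had 13.26, 13.31 and 13.38 in ethanol and 13.68, 13.62 and 13.72 with dexamethasone at 24 h, without overlap, and rose by 0.36 ± 0.12 (adjusted p = 0.0356). At 6 h its values were 12.49, 13.01 and 12.80 in ethanol and 12.81, 13.11 and 13.03 with dexamethasone. NCAPG went from 11.21, 11.30 and 11.35 to 11.61, 11.71 and 11.64 at 24 h, a rise of 0.37 ± 0.13 (adjusted p = 0.0374), and from 10.48, 10.84 and 10.37 to 10.86, 11.09 and 10.68 at 6 h. The other NCAPG probe set differed by 0.25 at 24 h and did not pass without a block (adjusted p = 0.162). Treated and control arrays of 24 h did not overlap for either gene, and for each the call ended in 6 of 12 cases when 1 array was left out, with adjusted p up to 0.0999 and 0.109. NCAPD2, of the same condensin, differed by 0.27 ± 0.06 at 24 h and 0.37 ± 0.06 at 6 h (adjusted p = 0.00776 and 0.0133 with the block). The condensin subunits NCAPH and SMC2 differed by -0.16 ± 0.12 and 0.10 ± 0.09 and did not pass. MKI67, the chromosome surface protein Ki-67 used to mark dividing cells, had 10.34, 10.59 and 10.62 in ethanol and 10.73, 10.73 and 10.76 with dexamethasone at 24 h, higher on every treated array by a mean of 0.22 (adjusted p = 0.299 without and 0.0808 with the block). At 6 h it had 9.52, 10.26 and 9.81 in ethanol and 10.19, 10.55 and 10.33 with dexamethasone, a difference of 0.50 that passed with the block (adjusted p = 0.0202) and not without (0.113).

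Of the 5 genes that open or brake anaphase, ESPL1, the protease separase, was the only member to rise at 6 h without a block. Its values at 6 h were 9.28, 9.53 and 9.28 in ethanol and 9.74, 10.15 and 9.79 with dexamethasone, so every treated array was above every control. It rose by 0.53 ± 0.11 (adjusted p = 0.0214), a factor of 1.44. The call ended in 2 of 12 cases when 1 array was left out, with adjusted p up to 0.0766. Its second probe set differed by 0.45 at 6 h and did not pass without a block (adjusted p = 0.103). At 24 h ESPL1 had 9.69, 9.74 and 9.84 in ethanol and 10.01, 9.99 and 9.92 with dexamethasone. This was a smaller difference of 0.22 ± 0.11 (adjusted p = 0.143 without and 0.0355 with the block). PTTG1, the securin that holds separase inactive, differed by 0.23 ± 0.08 at 24 h (adjusted p = 0.044 with the block). CDC20, which activates the anaphase-promoting complex, differed by 0.03 ± 0.31, its ubiquitin-conjugating enzyme UBE2C by 0.17 ± 0.23 and its inhibitor FBXO5 (EMI1) by -0.15 ± 0.13; none of these passed.

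In cytokinesis, ECT2 differed by -0.07 ± 0.08 at 24 h and did not pass, while the ring scaffold ANLN differed by 0.23 ± 0.06 (adjusted p = 0.0214 with the block). FOXM1, the transcription factor that drives many of these genes, had 9.63, 9.73 and 9.88 in ethanol and 9.66, 9.71 and 9.68 with dexamethasone at 24 h, overlapping groups with a difference of -0.06 ± 0.09. At 6 h it had 9.38, 9.55 and 9.55 in ethanol and 9.66, 9.91 and 9.66 with dexamethasone, higher in each experiment by a mean of 0.25, which did not pass (adjusted p = 0.157 without and 0.0761 with the block).

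The response itself was compared between the times, as the 24 h difference minus the 6 h difference. Without a block no member passed in limma's test, against 27.1% of all genes in either direction. An unadjusted p under 0.05 was found for 3 members, TTK, CENPK and FOXM1, against 3873 of all 9947 genes. With the block 4 members had the higher response at 24 h, against 18.0% of all genes, and 3 the lower, against 20.4%. The higher were CCNB2, DLGAP5, ASPM and CKAP2, and the lower were TTK, CENPK and ESPL1. The 6 h response that enters this difference coincides with a batch.

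Over the 58 members 101 probe sets were tested: 31 members had 1, and the other 27 had 70 between them. At 24 h 12 of the 101 rose and 5 fell without a block, no member had called probe sets of opposite sign, and no member was called only by a probe set other than the one that stood for it.

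Other genes of mitosis rose and fell in equal number without a block. Of 78 further kinetochore, centrosome and spindle genes, 14 rose and 14 fell at 24 h without a block, both below the 23.9% and 28.1% of all genes, with a median of 0.03. With the block 25 rose and 17 fell, against 28.8% and 32.4%, and within the batch 21 and 14. The smallest p values belonged to SMC4, the condensin ATPase, at 1.75 ± 0.09, the kinetochore histone-fold protein CENPX at -1.35 ± 0.10, and 2 subunits of augmin, which branches spindle microtubules, HAUS7 at -1.19 ± 0.10 and HAUS3 at 0.98 ± 0.09. SMC4 therefore rose by more than any of the 58, while its partner SMC2 did not pass. Of 13 subunits of the anaphase-promoting complex, 1 rose and 3 fell (2 and 4 with the block, 1 and 4 within the batch). Without a block these were 7.69% and 23.1%, against 23.9% and 28.1% of all genes. Those called without a block were ANAPC16 at 0.74 ± 0.10, CDC23 at -0.44 ± 0.09, ANAPC5 at -0.33 ± 0.07 and ANAPC15 at -0.32 ± 0.11. Of 13 cohesin genes, 3 rose and 1 fell (2 and 1 within the batch). Without a block these were 23.1% and 7.69%, so the share that rose was near the 23.9% of all genes. The share that fell was below the 28.1% of all genes. They were the deacetylase HDAC8 at 0.56 ± 0.10, the loaders NIPBL at 0.54 ± 0.13 and MAU2 at 0.21 ± 0.08, and PDS5A at -0.35 ± 0.11.

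Of 21 regulators of mitotic gene transcription, 4 rose and 8 fell at 24 h, against 23.9% and 28.1% of all genes (6 and 9 with the block, 5 and 8 within the batch), with a median of -0.09. The smallest p values were those of the MuvB subunit LIN37 at 0.86 ± 0.11, the E2F factor E2F5 at -1.70 ± 0.22, the E2F dimer partner TFDP2 at -0.64 ± 0.10 and the repressor E2F6 at -0.70 ± 0.12. Of 51 genes of replication origins and forks, 24 fell and 1 rose at 24 h, against 28.1% and 23.9% of all genes, with a median of -0.32, and 31 fell and 3 rose with the block (25 and 2 within the batch). TIPIN, of the fork protection complex, differed by -1.17 ± 0.13, the helicase subunit MCM4 by -0.75 ± 0.10, and the polymerase subunits POLD2 and POLE2 by -0.83 ± 0.12 and -0.75 ± 0.13. On the dexamethasone arrays of 24 h the mean level of the replication genes was -0.31, -0.07 and -0.38, where that of the mitosis genes was 0.31, 0.34 and 0.34. In ethanol at 24 h the replication genes stood at 0.01, 0.12 and 0.02, so that every treated array was below every control. The lists were described by these counts and medians, and the difference between them was not tested. On the spike scale the medians at 24 h were -0.66 for replication genes, -0.30 for the other mitosis genes and -0.16 for the 58.

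**Figure D5:**
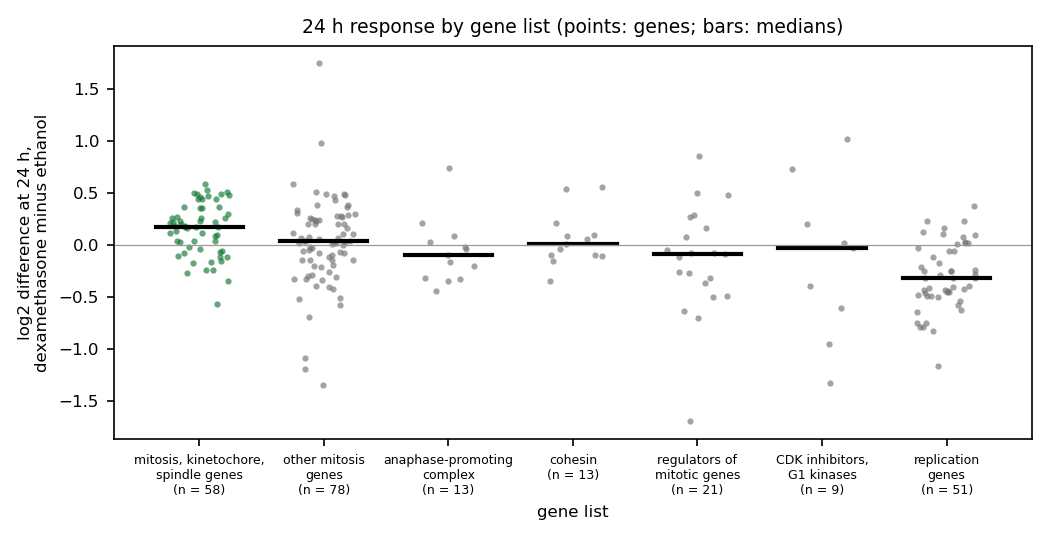
Points are log2 differences, dexamethasone minus ethanol at 24 h, of the genes in each list on the horizontal axis, and black bars are medians. The bar of the 58 mitosis, kinetochore and spindle genes lies at 0.18 and that of the 51 replication genes at -0.32.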

How the data were processed

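Of the 12 arrays, 1 per sample, the authors deposited 1 table of log2 expression values per probe set, which, per the submitters' processing notes, come from GCRMA run in R 2.6; GCRMA's settings are not stated there. The table held 54675 probe sets, 62 of them controls; 41097 carried 1 gene symbol in the platform annotation, 1801 several and 11777 none. Probe sets with a log2 value of at least 4 on at least 3 arrays were tested (23265 probe sets, 9947 genes), and the probe set with the highest mean stood for its gene. The main model, by limma 3.58.1 under R 4.3.3, had 1 mean per group and used every array (8 residual degrees of freedom), with Benjamini-Hochberg adjustment over all tested probe sets and a threshold of 0.05; a value after ± is the standard error limma gives for a log2 difference between groups of 3 arrays. That error is from this model unless the first adjusted p beside it is from the fit with the block. Errors from the different fits should not be compared between members. The fit without a block was tested on simulated data. Replicates are separate experiments with the same line, and the p-values reflect their spread alone. The number of arrays limits the precision.

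Experiment numbers pair the samples: deviations of same-numbered arrays from their group means correlated at 0.417, 0.627 and 0.609 at 6 h and at 0.286, 0.238 and 0.424 at 24 h, and no other pair exceeded 0.05. The replicate block is this number, nested in time (4 residual degrees of freedom). Alternatives were other filters, scales, fits, thresholds and leaving out arrays. Every member is named; array values are given for members past the test without a block and for CDK1, CCNB1, PLK1, AURKA, FOXM1 and MKI67, and CCNB2, DLGAP5 and KIF23 were added after their values were seen. Of other lists, the 4 genes with the smallest p at 24 h are named. The members and lists were chosen with earlier results of these data known.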

Additional observations from a re-analysis of the deposited data

Results flagged for a closer look

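The response to dexamethasone differed between 24 h and 6 h in 7 members by limma's test of the difference itself with the experiment as a block; none of the 7 passed without the block, and on the poly-A spike scale with the block only CCNB2 did (adjusted p = 0.0467). CCNB2, cyclin B2, responded more at 24 h by 0.36 ± 0.10 (adjusted p = 0.0324), with differences of 0.14 at 6 h and 0.51 at 24 h. The spindle genes DLGAP5, ASPM and CKAP2 did so by 0.31 ± 0.08, 0.28 ± 0.08 and 0.32 ± 0.10 (adjusted p = 0.0261, 0.0361 and 0.0421). TTK and CENPK, which fell at 24 h, had values of -0.41 ± 0.08 and -0.36 ± 0.08 (adjusted p = 0.00788 and 0.0135). ESPL1, separase, responded more at 6 h, with -0.31 ± 0.10 (adjusted p = 0.0496). The 6 h arrays of the 2 treatments belong to different batches, and the part of the batch was not tested.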

How the results depend on the processing

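Counts of called members depended on how the spread was estimated. The replicate block gave 10 rises at 6 h, 27 at 24 h, and 4 higher and 3 lower responses at 24 h than at 6 h. With only the arrays of 1 time, 0 rose at 6 h and 21 at 24 h. Without both 6 h arrays of experiment 1, a setting chosen after seeing the data, 3 rose at 6 h and 23 at 24 h. In that fit 1 response was lower at 24 h, and 37 members were higher in ethanol at 24 h than at 6 h. Moderation with trend and robust gave 2 rises at 6 h and 9 in ethanol. With no filter 2 rose at 24 h and 1 in ethanol, and with a filter at log2 6, 4 in ethanol. At a threshold of 0.01, 0 rose at 6 h, 2 rose and 1 fell at 24 h, and 0 rose in ethanol. Cyclic loess gave medians of 0.14 and 0.27 at 6 h and 24 h, with 15 rises and 1 fall at 24 h. For the settings from the fit without experiment 1 to cyclic loess, shares over all genes are not given. Their counts thus have no share to be read against. The poly-A spike scale reversed both medians, to -0.36 and -0.16, with 0 rises at both times and in ethanol. There were 25 falls at 6 h and 14 at 24 h, against 68.0% and 47.0% of all genes. With the replicate block on that scale there were 37 and 16 falls, against 80.6% and 54.7% of all genes. The medians were the same, there were 0 rises, and 1 response was higher at 24 h, against 17.4% of all genes. KIF11 at 24 h turned to -0.04 on the spike scale with and without the block. Why these differ was not tested beyond the standard errors given above.

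Leaving out 1 array gave 0 to 5 rises at 6 h (5 without ethanol experiment 1), a 6 h median of -0.01 to 0.27, 2 to 14 rises and 1 to 3 falls at 24 h, a 24 h median of 0.13 to 0.24, 0 to 1 lower responses at 24 h, and 0 to 20 rises in ethanol (20 without ethanol experiment 1 of 6 h). The median-centred scale and the mean over a gene's probe sets changed no count by more than 1.5 times. Groups of 3 arrays, treatment that coincides with batch at 6 h and time that coincides with batch in ethanol limit all of these values.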

Other observations

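Of 9 measurable CDK inhibitors and G1 kinases, which hold back or start the cell cycle, 2 rose and 3 fell at 24 h in limma's fit without a block, shares near the 23.9% and 28.1% of all genes; 2 rose and 4 fell with it. CDKN1B, the inhibitor p27, rose by 1.02 ± 0.12, and CDC25A, the phosphatase that activates the G1/S kinases, differed by -1.33 ± 0.13. The G1 kinases CDK4 and CDK6 differed by -0.95 ± 0.10 and -0.61 ± 0.09. At 6 h none of the 9 passed the test without a block, and 2 had an unadjusted p under 0.05, against 2095 of all 9947 genes. With the block 2 fell at 6 h, against 7.53% of all genes: CDKN2D, the inhibitor p19, which differed by -0.49 (adjusted p = 0.00553), and CDC25A, which differed by -0.29 (adjusted p = 0.0448). Treatment and batch coincide at 6 h. At 24 h CDKN2D went the other way and was the other rise beside CDKN1B. It differed by 0.73 ± 0.13 (adjusted p = 0.000934 without and 0.000108 with the block in limma's fit). CDKN2D was named after its values were seen.

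Outside the 58 genes, 2 of 78 further mitosis genes (2.56%) rose at 6 h without a block, against 2.72% of all genes. They were DSN1, of the MIS12 kinetochore complex, by 0.43 ± 0.09, and HAUS3 by 0.43 ± 0.09. Treatment and batch coincide at 6 h. On the spike scale none of the 78 rose at 6 h, against 1.14% of all genes. At 24 h DSN1 differed by 0.29 ± 0.09 and HAUS3 by 0.98 ± 0.09. DSN1 was named after its values were seen.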
